A study of Mus musculus with 6 samples.

Results

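Stox2 and Enpp6 are neighbouring genes on mouse chromosome 8, and 9 of the 230 regions that the authors called as differentially methylated in CpG context overlap them. A region was taken as a member when at least 1 base of it lay on chromosome 8 within the bounds that the authors' gene table gives for either gene, which placed 5 regions in Stox2 and 4 in Enpp6. The levels came from whole-genome bisulfite sequencing of DNA from CA1, an output field of the hippocampus, cut by laser microdissection from frozen 8 µm brain sections. The groups were 3 wild type mice and 3 Neil3-/- mice, all male, on a C57Bl6 background, 3 to 6 months old and in the "baseline" condition, in which they came straight from the home cage. NEIL3 is a DNA glycosylase that removes oxidised bases during base excision repair, and the comparison asked how its loss bears on CA1 methylation. The sources used here do not give how the allele was made or how long it was bred to the background strain. Each region has 1 mean level per group, without values per animal and without coverage, so the depth is unknown and no error over the animals can be given. That the first of the deposited means is wild type rests on the title of the authors' sheet, and every direction given here depends on it.

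Enpp6 encodes a membrane-bound phosphodiesterase that acts on choline-containing lipids and releases phosphocholine from glycerophosphocholine. Its transcript is known as a marker of oligodendrocytes that are newly forming myelin. Stox2 encodes a winged-helix protein of the storkhead box family, related to Stox1, and its human counterpart has been studied in placenta. In mammalian tissues most CpGs within gene bodies carry methylation, while active promoters and many enhancers carry little. A bisulfite level is an average over all cells of the dissected tissue, so the levels in Enpp6 are not levels in oligodendrocytes. The files hold no expression, and the description of Enpp6 as an oligodendrocyte gene could not be checked against markers here.

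In the authors' gene table Enpp6 lies at chr8:46986887-47096762 (GRCm38, + strand), is 109.9 kb long and has a GC content of 43.9%. Stox2 lies at chr8:47180048-47446362 (- strand), is 266.3 kb long and has a GC content of 44.7%. The genes point towards each other, with 83.3 kb between their ends. The table lists 6 transcription starts for Enpp6 and 9 for Stox2. The DNA just before 1 RefSeq start is shown here for Enpp6, for Stox2 and for Gm31231, to show how CpGs are placed there. Gm31231 is a long noncoding RNA gene lying inside Enpp6 on the opposite strand. The start shown for it lies closest to any of the 9 regions. The starts shown for Enpp6 and Stox2 lie inside the RefSeq bounds, which begin at 46939197 for Enpp6 and reach 47413847 for Stox2. Most of the other starts near the regions are not shown. Each run holds the 250 bases before the named start (GRCm38.p6), 5′ to 3′ on the strand of its gene. Capitals mark the CpGs, the only sites at which these levels are measured.
Enpp6, before the start at 46986887: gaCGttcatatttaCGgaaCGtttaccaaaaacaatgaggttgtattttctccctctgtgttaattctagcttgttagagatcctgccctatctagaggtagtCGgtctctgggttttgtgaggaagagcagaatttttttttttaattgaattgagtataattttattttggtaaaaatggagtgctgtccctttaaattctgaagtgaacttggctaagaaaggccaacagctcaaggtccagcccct
Stox2, before the start at 47352348: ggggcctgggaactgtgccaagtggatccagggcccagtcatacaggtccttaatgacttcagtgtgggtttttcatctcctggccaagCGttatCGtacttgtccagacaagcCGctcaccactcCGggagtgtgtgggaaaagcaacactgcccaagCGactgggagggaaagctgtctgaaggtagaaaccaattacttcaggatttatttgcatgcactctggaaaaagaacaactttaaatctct
Gm31231, before the start at 47083049: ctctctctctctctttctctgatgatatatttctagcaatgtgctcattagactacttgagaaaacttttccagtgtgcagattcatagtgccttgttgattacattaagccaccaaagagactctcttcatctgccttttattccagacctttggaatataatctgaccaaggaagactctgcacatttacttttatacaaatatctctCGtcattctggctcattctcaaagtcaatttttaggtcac
The Enpp6 window at chr8:46986637-46986886 (+ strand) holds 4 CpGs and the Stox2 window at chr8:47352349-47352598 (- strand) holds 5. The Gm31231 window at chr8:47083050-47083299 (- strand) holds 1. The median over 32851 windows of the same length before RefSeq starts was 6 CpGs, and 44.4%, 49.6% and 18.8% of those windows held no more than Enpp6, Stox2 and Gm31231, respectively. None of the 3 windows overlapped a listed region. CpGs outside the listed regions have no values in the tables used here, so nothing is said of their levels.

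Of the 9 regions, 8 had less methylation in the knockout than in wild type and 1 had more, taking the direction from the authors' deposited table. The genes were chosen by the group means, differences and q-values of these same regions, so the levels below are a description without a test. Among all 230 listed regions 70.9% were lower and 29.1% higher, and among the 118 of chromosome 8 the shares were 94.9% and 5.08%. Within the interval around Neil3 that holds both genes 96.5% were lower. Lower regions in both genes are therefore what most of this chromosome's list shows. Across the 9 regions the authors' means had a median of 0.848 for wild type against 0.203 for the knockout. Together the regions hold 170 CpGs in 4156 bp.

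Enpp6 carried 4 regions, and in each of them the wild type level was high and the knockout level low. The region closest to the first listed start, at chr8:47003301-47004014, held 10 CpGs, with a wild type level of 0.922 and a knockout level of 0.0904 (authors' means). It lies 16414 bp into the gene from that start. The second, at chr8:47071579-47072399, held 26 CpGs, with levels of 0.909 and 0.0475 (authors' means). This was the largest difference in either gene, 0.861 on the fraction scale, and 12 of the 110 lower regions of the surrounding interval had a larger one. Its q-value in the authors' deposited table was 2.64e-20, the smallest of the 9 regions. It begins 2648 bp downstream of an internal start at 47068931.

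The other two regions of Enpp6 lie close together near the 3′ end of the gene and differed from each other in the knockout. At chr8:47084010-47084256, with 20 CpGs, wild type averaged 0.895 and the knockout 0.229 (authors' means). At chr8:47089090-47089435, with 25 CpGs and only 4834 bp further on, wild type averaged 0.870 and the knockout 0.0340 (authors' means), the lowest knockout level of the 9. No spread between animals is available to say whether the difference between the neighbours exceeds the error.

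The region at 47084010 is the only member within 2 kb of a listed start of its gene. It begins 1689 bp downstream of the last internal start of Enpp6, at 47082321, and lies 961 bp upstream of the Gm31231 start whose window is shown above. It is also the shortest of the 9 regions, at 247 bp, and has the highest CpG density, 8.10 CpGs per 100 bp. The first Enpp6 region has the lowest, 1.40 per 100 bp. Both extremes of CpG density were therefore within this gene, at regions that went the same way.

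Stox2 carried 5 regions, of which 4 were lower in the knockout and 1 was higher. In the 4 lower regions the authors' knockout means ran from 0.147 to 0.266. At chr8:47311922-47312490, with 28 CpGs, wild type averaged 0.809 and the knockout 0.266 (authors' means). At chr8:47314014-47314375, with 10 CpGs, these levels were 0.848 and 0.249. These neighbours are 1524 bp apart and had nearly the same levels in each group. At chr8:47357546-47357972, with 19 CpGs, wild type averaged 0.735 and the knockout 0.147 (authors' means), and the q-value of 0.00803 in the authors' deposited table was the largest of the 9. At chr8:47386661-47386960, with 20 CpGs, the levels were 0.746 and 0.203, with a q-value of 1.34e-10 in the authors' deposited table.

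The region of Stox2 that was higher lies at chr8:47303999-47304368 and holds 12 CpGs in 370 bp. Wild type averaged 0.220 there and the knockout 0.867 (authors' means), and its q-value in the authors' deposited table was 3.08e-06. The next region, at 47311922, begins 7554 bp away and went the opposite way, from 0.809 to 0.266. Across these neighbouring stretches the groups therefore held mirrored levels, low then high in wild type and high then low in the knockout. In the interval around Neil3, 3.51% of the listed regions were higher, 4 of 114. The higher Stox2 region had the lowest wild type mean of these 4, and the other 3 had authors' wild type means of 0.524, 0.536 and 0.558. Its difference of 0.647 was also the largest of the 4, the others being 0.184, 0.356 and 0.361.

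**Figure D1:**
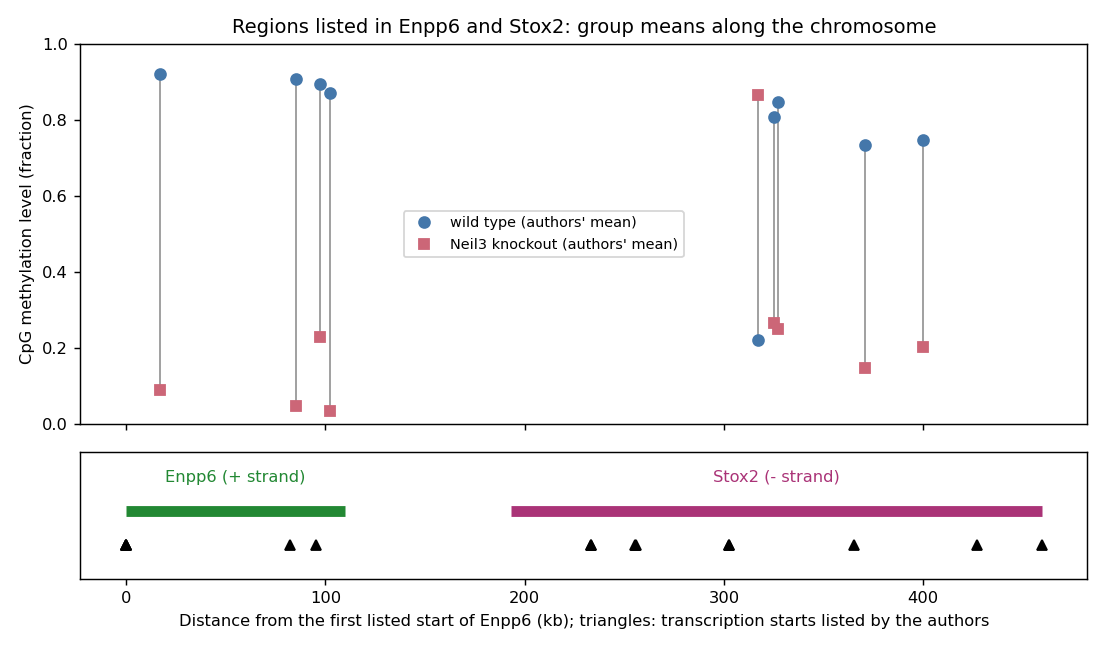
Authors' mean CpG methylation level (fraction, vertical axis) of the 9 regions in wild type (circles) and Neil3 knockout (squares) against distance from the first listed start of Enpp6 (kb), with gene bodies as bars and listed transcription starts as triangles below. All 4 Enpp6 regions and 4 of the 5 Stox2 regions have the knockout below wild type, and the leftmost Stox2 region has it above, at 0.867 against 0.220; no error bars can be drawn because only group means were deposited.

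None of the 9 regions covers a transcription start in the authors' gene table. Stox2 is read from high to low positions, and its regions lie between its starts rather than at them. The region at 47386661 lies 26877 bp downstream of the start at 47413837. The region at 47357546 lies 5198 bp upstream of the start at 47352348, the Stox2 start whose window is shown above, and this is the closest approach of a region to a start in this gene. The remaining 3 regions fall within 10.4 kb, and the nearest start, at 47289402, lies 14597 bp to 24612 bp downstream of them. Below them the last 124.0 kb of the gene, 46.5% of its length and home to 6 of its 9 listed starts, held no listed region. In Enpp6 all 4 regions lie downstream of the start nearest to them, and 3 of them fall within 17.9 kb, after a stretch of 67.6 kb without a listed region.

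The regions cover a small part of each gene, 1.94% of Enpp6 and 0.762% of Stox2. None of them overlaps another RefSeq gene. The stretch from Enpp6 to Stox2 also holds the noncoding RNA genes Gm31231, Gm51569, Gm51570 and Gm39171 and the small nucleolar RNA gene Gm22857, and none of these carried a region. The nearest annotated genes on either side are Irf2, a transcription factor of interferon signalling, and Trappc11, a subunit of a vesicle tethering complex, and neither carried a region. Enpp6 held 36.4 regions per Mb and Stox2 18.8 per Mb, and the rest of the interval around Neil3 held 7.83 per Mb. With the RefSeq bounds, which are longer for Enpp6 and shorter for Stox2, the same counts gave 25.4 and 21.4 per Mb. Neil3 itself, with 3 regions, held 57.5 per Mb. The densities of Enpp6 and Stox2 rest on 4 and 5 regions, and both genes were singled out with these counts known.

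The lower regions of the genes separated on the wild type level and on the size of the difference, but not on the knockout level. Authors' wild type means ran from 0.870 to 0.922 in Enpp6 and from 0.735 to 0.848 in the 4 lower regions of Stox2, without overlap. Differences of the means ran from 0.666 to 0.861 in Enpp6 and from 0.543 to 0.599 in Stox2, again without overlap. Authors' knockout means ran from 0.0340 to 0.229 in Enpp6 and from 0.147 to 0.266 in Stox2, with the Enpp6 region at 47084010 inside the range of Stox2. In Enpp6 3 of 4 knockout means were under 0.1, and in Stox2 0 of 5 were, beside 54 of 114 in the interval. These values chose the members and have no replicate error, so the separation was not tested. Weighted by the number of CpGs, the mean level in Enpp6 was 0.895 for wild type and 0.0935 for the knockout, and in the lower regions of Stox2 it was 0.779 and 0.218.

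Set beside the rest of the interval, 3 of the 4 Enpp6 regions had larger differences than most and the lower Stox2 regions had smaller ones. The other 102 lower regions had a median wild type mean of 0.862, a median knockout mean of 0.101 and a median difference of 0.741. The medians in Enpp6 were 0.902, 0.0690 and 0.834, and in the lower regions of Stox2 they were 0.777, 0.226 and 0.566. Of the 110 lower regions, between 91 and 100 had a larger difference than each lower region of Stox2, whereas 12 to 27 had a larger difference than 3 of the Enpp6 regions and 74 than the region at 47084010. CpG density gave no such order, with medians of 5.20 CpGs per 100 bp in Enpp6, 4.45 in Stox2 and 3.69 in the other 105 regions of the interval.

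**Figure D2:**
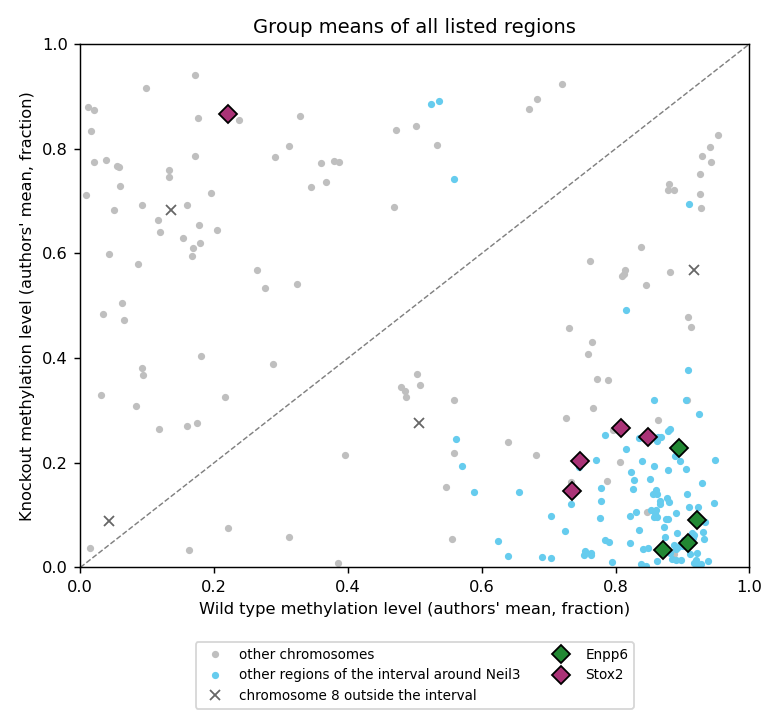
Authors' mean level in the knockout (vertical axis, fraction) against wild type (horizontal axis, fraction) for all 230 listed regions, with Enpp6 and Stox2 as diamonds and the dashed line marking equal levels. The Enpp6 regions sit in the dense lower right group of the interval around Neil3, the lower Stox2 regions at wild type levels of 0.735 to 0.848 and knockout levels of 0.147 to 0.266, and the higher Stox2 region, at 0.220 and 0.867, among regions of other chromosomes.

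Both genes lie at the edge of the interval of regions around the disrupted locus. Regions of chromosome 8 less than 2 Mb apart form a single chain of 114 that starts with the first Enpp6 region, at 47003301, and ends at 60851601. Enpp6 is 6.49 Mb and Stox2 6.14 Mb from Neil3. The next listed region below Enpp6 on the chromosome lies 26.4 Mb away. On the other side the nearest region outside the rule was at chr8:47469920-47470332, 23.6 kb past the upper bound of Stox2, with a wild type level of 0.910 and a knockout level of 0.115 (authors' means). All 4 other regions within 1 Mb of the genes lay on that side and were lower, with authors' knockout means of 0.0145 to 0.195. One of them overlaps Cldn22, which encodes a claudin, a tight junction protein.

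Levels in the genes were also set beside regions at the same distance from Neil3. The 4 other regions of the interval that lie 6 to 7 Mb from Neil3, on either side, were all lower, with authors' knockout means of 0.0234 to 0.115 and a median difference of 0.789. On the side of the genes this set holds only the region at 47469920 described above, and the others lie past Neil3. The 3 Neil3 regions had a median wild type level of 0.907 and a median knockout level of 0.140 (authors' means), and the targeted gene could not be checked in single animals. The median difference of 0.834 in Enpp6, more than 6 Mb away, stands beside 0.767 in Neil3 itself. The 3 Neil3 regions were uneven, with differences from 0.214 to 0.842 and authors' knockout means from 0.00347 to 0.695. All animals that lacked NEIL3 also carried the disrupted locus on this chromosome, so an effect of missing NEIL3 and an effect of the chromosome around the locus cannot be told apart in either gene. Coverage was not analysed here, so the number of reads behind each level is unknown. Whether a low number of reads bears on the knockout levels was not tested.

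**Figure D3:**
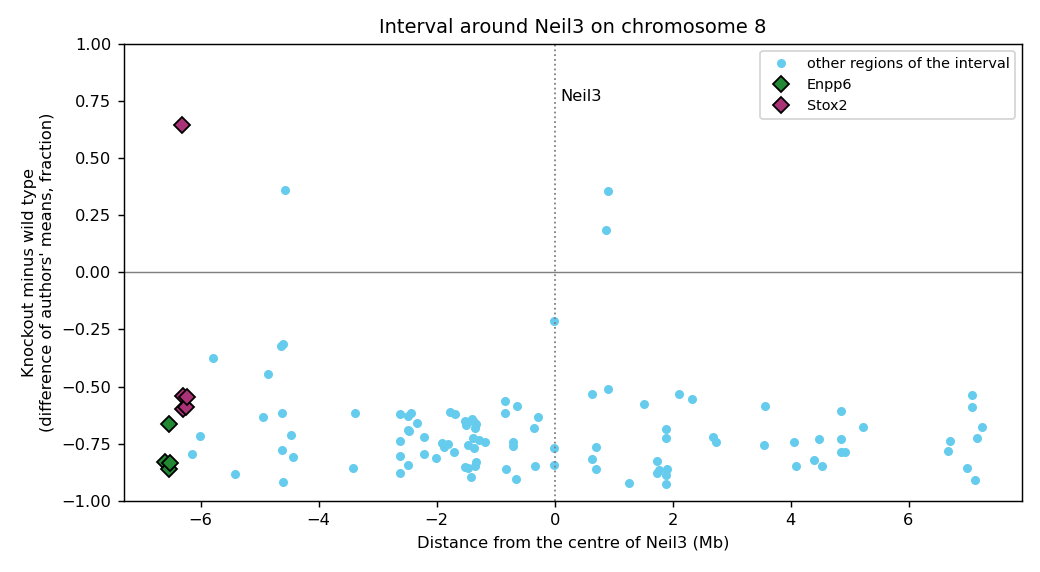
Difference of the authors' means, knockout minus wild type (fraction, vertical axis), against distance from the centre of Neil3 (Mb) for the 114 regions of the interval. Enpp6 and Stox2 (diamonds) form the far left end, with the higher Stox2 region at 0.647 above all others and the 4 Enpp6 regions between -0.666 and -0.861.

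Genes with a like pattern were sought among the 14 other genes with at least 2 regions, by the distance between median differences (knockout minus wild type, over 2 group means). Closest to Stox2, with its median of -0.54, was Tenm3, a teneurin of neuronal wiring, with -0.54 over the 2 regions within the authors' bounds for it. Within its RefSeq bounds Tenm3 held 10 regions, 9 lower and 1 higher, with a median of -0.62, so the near match rests on those 2 regions. Tenm3, like Stox2, carries 1 of the 4 higher regions of the interval. Gm52481 on the Y chromosome followed with -0.42 and 1700019L22Rik with -0.74. Closest to Enpp6, with its median of -0.83, were Neil3 with -0.77, Galntl6 with -0.76 and 1700019L22Rik with -0.74. Apart from Gm52481, these genes lie in the interval around Neil3.

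Few genes of the annotation carried a listed region, 68 of 49997 or 0.136%, so most lists as short as those below would hold none. Against this background, the only gene with a region among 42 genes of the oligodendrocyte lineage, such as the myelin genes Mbp and Mog and the lineage regulators Sox10 and Olig2, was Enpp6. Enpp6 was also the only one among 33 genes of choline and glycerophosphocholine metabolism and among the 7 genes Enpp1 to Enpp7 of its enzyme family. Of the storkhead box genes, Stox2 held regions and Stox1 did not. Each of these hits is a gene the rule had chosen, so the counts are given for completeness and say nothing about the lists. Gene bounds widened by 10 kb gave the same counts.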

How the data were processed

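CA1 DNA of 6 animals, fragmented to a mean near 250 bp, received methylated adaptors before bisulfite conversion and Illumina sequencing, per the labels' protocols. BSMAP, an aligner for bisulfite reads, and the build GRCm38 (mm10) are named, per the submitters' processing notes, while the sources used here do not give the region caller or its coverage minimum. Levels were deposited by the authors as a fraction per group and region, with a q-value per region of at most 0.0475. The difference of levels deposited by the authors, a signed score, was used for direction. It equalled the difference of means within 0.001 in all 9 member regions. It did not in 17 of the 230 listed regions, 2 of them in the interval around Neil3. The deposited gene table gives bounds, starts and GC content in percent. Wild type was read as the first group from the sheet title. Bisulfite treatment does not separate 5-methylcytosine from 5-hydroxymethylcytosine. Whether positions count from 0 or 1 is not stated, so distances may be off by 1 base. Strands, start windows and the bounds of unlisted genes came from RefSeq tables of GRCm38.p6, and all symbols of the gene lists matched.

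Overlaps, distances, medians and counts were computed in Python 3.11.15 with pandas 2.3.3, and the interval and distance functions were tested on simulated data. With 1 mean per group, neither the planned model on counts per animal nor any other test was run. Named were all member regions, Neil3, neighbouring genes and regions, the 3 genes most alike by median difference, and genes of the lists with a region. Members and lists were chosen with earlier results of these data known. Alternatives were other gene bounds, the midpoint rule, the direction by means, and stricter limits on q, difference and CpGs.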

Additional observations from a re-analysis of the deposited data

How the results depend on the processing

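Of 48 values recomputed under alternatives, 44 kept within 1.5 times the count or kept the median to 3 digits. Part of this was fixed beforehand. The smallest difference among the 9 regions was 0.543, above the limit of 0.3. The deposited difference also matched the difference of means in all 9, so the direction by means could not change a count. RefSeq bounds, bounds widened by 10 kb, region midpoints, the direction by group means and a difference of at least 0.3 left the counts of 4 lower regions in Enpp6 and 4 lower and 1 higher in Stox2 as they were. With at least 20 CpGs per region Stox2 retained 2 lower and 0 higher regions, since the higher region has 12 CpGs. Enpp6 retained 3 lower regions, and the median wild type mean of the members became 0.870. With a q-value of at most 0.001 the median knockout mean became 0.229, since 2 regions drop out. This left 3 lower regions in Enpp6, and 3 lower and 1 higher in Stox2. No paired analysis was possible because the deposited table holds 1 mean per group and no values per animal, and for the same reason no replicate could be left out. Coverage behind each level is unknown.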
